A study of Mus musculus with 6 samples.

Results

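The iron handling genes examined here are 10 genes that import, store, export or sense iron, measured in ID8-M cells and in the parental ID8 cells from which they were derived. They were taken as all probes of the bead array table that the platform annotation assigns to Trf, Tfrc, Steap3, Slc11a2, Fth1, Ftl1, Slc40a1, Heph, Aco1 or Ireb2, which gave 24 of 45281 probes and 10 of 19057 annotated genes. ID8 is an ovarian epithelial cancer line of the female C57BL/6 mouse, and ID8-M is 1 line grown from it in vivo. For ID8-M, parental ID8 cells were placed in the peritoneal cavity of female mice aged 8 weeks, ascites cells were plated 12 weeks later, and clones were picked after 4 days and passaged. Neither line carried an engineered allele or received a treatment, and both were grown in the same high-glucose medium with 4% serum. The medium of both also held 5 µg/ml of added transferrin protein, 5 µg/ml of insulin and 5 ng/ml of sodium selenite. Total RNA of 3 ID8-M and 3 parental ID8 samples was hybridised to 1 bead chip. The chip holds ID8-M at positions D to F and parental ID8 at positions A to C, so chip position and line cannot be told apart. The labels do not say whether the 3 samples of a line came from separate cultures, so p-values measure the spread between these samples, which may be technical.

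Most cells take up iron bound to transferrin, a serum protein made mainly by the liver. Transferrin binds its receptor Tfrc and is carried into endosomes, where the reductase Steap3 reduces the iron and the transporter Slc11a2 (DMT1) moves it into the cytosol. Surplus iron is stored in ferritin, a shell of heavy chains (Fth1), which oxidise iron, and light chains (Ftl1). It leaves the cell through ferroportin, encoded by Slc40a1, helped by ferroxidases such as hephaestin (Heph). The iron regulatory proteins, encoded by Aco1 and Ireb2, bind stem-loops in mRNAs when iron is scarce, which stabilises the Tfrc mRNA and blocks translation of ferritin mRNA. Arrays of RNA do not see that block of translation.

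In ID8-M cells the transferrin gene Trf was 11.1-fold higher than in parental ID8, while the RNA of its receptor, both ferritin chains, ferroportin and both iron regulatory proteins was not called different. The dim Steap3 probe was called lower by a small margin that several processing choices removed, and Heph was not detected in either line. Of the 24 probes, 14 passed the filter and were tested, since their signal had a detection p under 0.05 on every array of 1 line or of both, and 10 were not detected on any of the 6 arrays. The tested probes covered 9 of the 10 genes. A probe is called changed at an adjusted p under 0.05 (limma, Benjamini-Hochberg over all 16221 tested probes). By that measure 2 of the 14 tested probes were called, 1 higher and 1 lower, where 28.4% of all tested probes were called. Per gene the count was 2 of 9 against 30.8% of all 8933 tested genes, 15.4% higher and 15.3% lower. The median log2 difference was −0.10 over the 9 genes and −0.03 over all tested genes. The lines' arrays did not overlap for 3 of the 14 probes, against 44.6% of all tested probes, and for 2 of the 9 genes, against 48.4% of all tested genes. Each of these shares lay below that of the array as a whole. With 14 probes and 9 genes the counts are too small to be read as a trait of the iron handling genes.

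**Figure D1:**
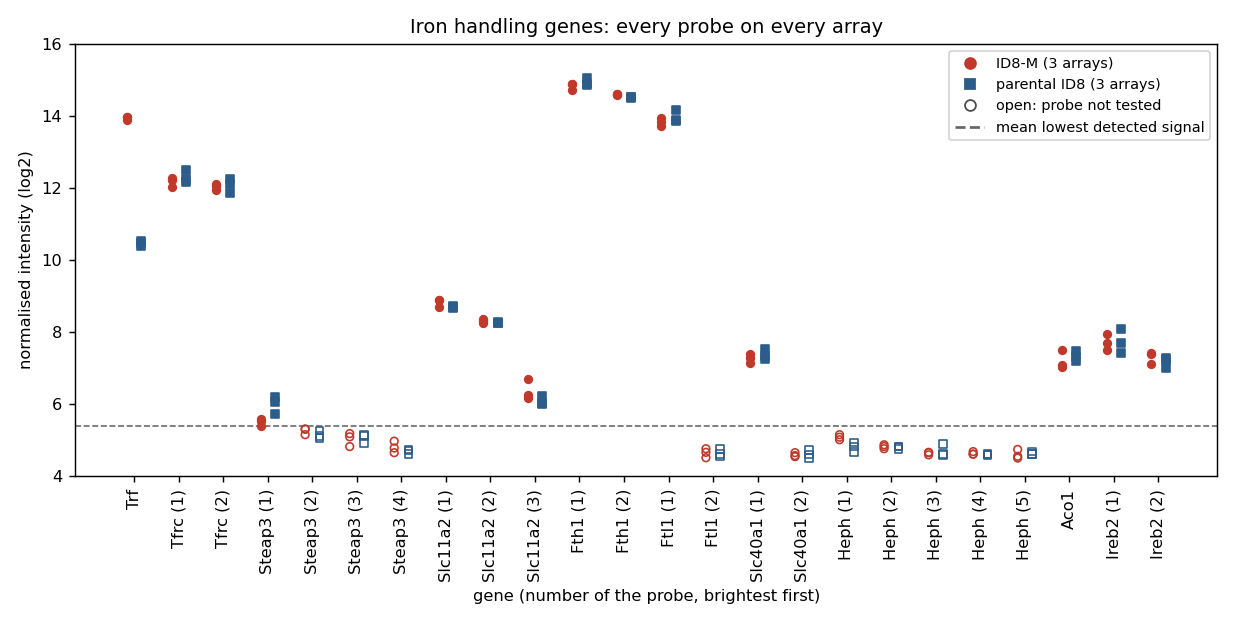
Normalised intensity (log2, vertical axis) of each of the 24 probes on each array, with ID8-M arrays as red circles and parental ID8 arrays as blue squares. Filled symbols are tested probes, open symbols are probes that were not tested, and the dashed line is the mean lowest detected signal. The ID8-M arrays sit at 13.90 to 13.96 for Trf, far above the parental ID8 arrays, while the lines lie close together for the other detected probes.

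Trf has 1 probe on the array (ILMN_2485323). Its deposited intensity, before any correction, was 15685, 14683 and 15062 units on the 3 ID8-M arrays, against 1597, 1690 and 1405 units on the 3 parental ID8 arrays. All 3 ID8-M arrays were far above all 3 parental arrays, and the lines did not overlap. Between 28 and 47 beads stood behind each ID8-M value and between 30 and 38 behind each parental value. The standard error over beads was 420 to 603 units in ID8-M and 63.5 to 96.2 units in parental ID8, small against the gap between the lines. In parental ID8 the probe was already detected on every array, so the difference is between 2 measured levels and not a bound.

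After background correction and normalisation, Trf was at 13.96, 13.90 and 13.96 (log2) in ID8-M and at 10.47, 10.53 and 10.38 in parental ID8. The means were 13.94 ± 0.04 and 10.46 ± 0.08 (SD, n = 3 each). The log2 difference was 3.48 ± 0.08 (SE), with a 95% interval of 3.29 to 3.66, which is 9.79-fold to 12.7-fold on the linear scale (limma adjusted p = 7.34e-08). Among the 8200 genes whose probe was detected on all 6 arrays, so that both lines are measured, Trf had rank 8 by size of rise. Under the 15 other processing settings the Trf difference lay between 3.37 and 3.52, and it was called in each. Because a bulk sample was measured, more cells that express Trf and more Trf RNA per cell cannot be told apart.

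**Figure D2:**
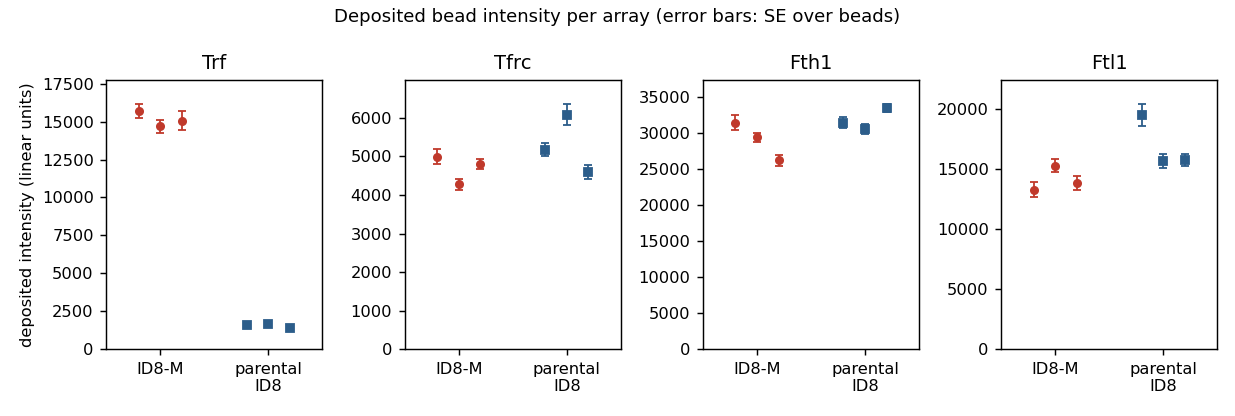
Deposited bead intensity (linear units, each vertical axis from 0) of the brightest probe of Trf, Tfrc, Fth1 and Ftl1, with ID8-M arrays as red circles left of parental ID8 arrays as blue squares, and bars for the SE over the beads of a probe. Trf separates the lines (14683 to 15685 against 1405 to 1690 units), whereas the arrays of both lines share a range for Tfrc and Fth1 and come close for Ftl1.

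The transferrin receptor gene was not called. Tfrc was at 12.23, 12.04 and 12.29 (log2) in ID8-M and at 12.24, 12.49 and 12.17 in parental ID8 by its brighter probe. The arrays of the lines overlapped, and parental ID8 replicate 2 was the highest of the 6. ID8-M differed from parental ID8 by −0.11 ± 0.11 on the log2 scale (SE; limma adjusted p = 0.508), with a 95% interval of −0.37 to 0.15. The other Tfrc probe gave −0.04 ± 0.11 (limma adjusted p = 0.8) and an interval of −0.29 to 0.21. On the linear scale the intervals are 0.776-fold to 1.11-fold and 0.816-fold to 1.15-fold.

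Steap3, the ferrireductase of the endosome, was measured near the detection limit. Its brightest probe (ILMN_1235400) read 160, 163.7 and 159.1 units before correction in ID8-M, against 175.8, 191.4 and 184.8 units in parental ID8. The lines did not overlap. The SE over beads of these values was 4.43 to 8.72 units in ID8-M and 7.52 to 9.33 units in parental ID8. The probe was detected on 2 of the 3 ID8-M arrays and on all 3 parental arrays. Its mean level was 5.50 in ID8-M and 5.99 in parental ID8 (log2), where the lowest detected signals of the arrays lay at 5.35 to 5.46. The log2 difference of −0.49 ± 0.13 (SE; limma adjusted p = 0.0247) passed the threshold. It was not called under 8 of 14 other settings, with adjusted p up to 0.0788, and was −0.16 without background correction. Leaving out ID8-M replicate 1, ID8-M replicate 3, parental ID8 replicate 2 or parental ID8 replicate 3 each ended the call, with differences of −0.43, −0.51, −0.45 and −0.39. The other 3 Steap3 probes were not detected on any array.

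Slc11a2, the endosomal iron transporter, had 3 tested probes. By the brightest it was at 8.89, 8.90 and 8.69 (log2) in ID8-M and at 8.69, 8.68 and 8.73 in parental ID8. ID8-M replicates 1 and 2 lay above the parental arrays and replicate 3 lay within their range. The log2 difference was 0.13 ± 0.09 (SE; limma adjusted p = 0.325), and the other probes gave 0.06 (adjusted p = 0.625) and 0.29 (adjusted p = 0.172). Slc11a2 lies on chromosome 15, where the median log2 difference over 380 tested genes was 0.36, and the difference of each Slc11a2 probe lay below that median. With each chromosome's median removed, the differences were −0.24, −0.30 and −0.07, and that of the second probe was called lower (limma adjusted p = 0.0238). The direction given for Slc11a2 thus depends on whether that shift is removed.

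**Figure D3:**
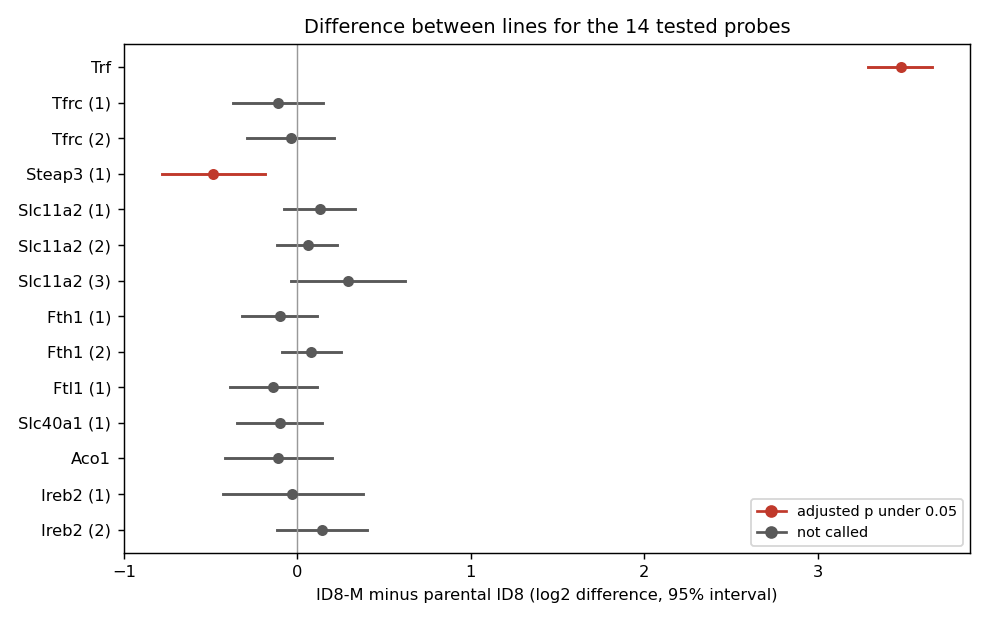
Log2 difference of ID8-M minus parental ID8 (points) with its 95% interval (lines) for the 14 tested probes, with called probes in red. Trf stands at 3.48, Steap3 at −0.49, and the intervals of the other 12 probes all include 0.

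Neither ferritin chain was called different. The heavy chain gene Fth1 read 31453, 29421 and 26219 units in ID8-M, against 31458, 30590 and 33464 units in parental ID8, by its brighter probe. The arrays overlapped, and the lowest of the 6 was ID8-M replicate 3. These readings were 79.6% to 91% of the brightest probe of their array in ID8-M and 88.1% to 100% in parental ID8, close to the top of the range; compression of the signal there was not tested. Fth1 differed by −0.10 ± 0.09 on the log2 scale (SE; limma adjusted p = 0.447), and the dimmer Fth1 probe gave 0.08 ± 0.07 (adjusted p = 0.469). For the dimmer probe the lines did not overlap, at 14.58, 14.60 and 14.60 in ID8-M and 14.50, 14.53 and 14.52 in parental ID8, but the gap was within the error of the fit.

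The light chain gene Ftl1 was at 13.72, 13.94 and 13.83 (log2) in ID8-M and at 14.17, 13.85 and 13.89 in parental ID8. Parental ID8 replicate 1 was the highest of the 6, and the rest lay close together. Ftl1 differed by −0.14 ± 0.11 on the log2 scale (SE; limma adjusted p = 0.38), with an interval of −0.39 to 0.11. The other Ftl1 probe was not detected on any array although the first is among the bright ones, so the probes of this gene disagree. Ferritin chains have processed gene copies in the genome, and whether transcripts of these add to the signal was not tested.

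For export, ferroportin (Slc40a1) had 1 detected probe, at 7.38, 7.14 and 7.29 (log2) in ID8-M and at 7.34, 7.54 and 7.25 in parental ID8. The arrays overlapped and the log2 difference was −0.10 ± 0.11 (SE; limma adjusted p = 0.508; interval −0.35 to 0.14). The other Slc40a1 probe was not detected on any array. Hephaestin (Heph), a ferroxidase best known from the gut, had 5 probes, and none was detected on any of the 6 arrays. Their deposited intensities were 120.5 to 147.7 units and the lowest detection p was 0.0876, so a difference in Heph was not detectable at this signal.

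The iron sensors gave no call. Aco1, which encodes iron regulatory protein 1 and doubles as the cytosolic aconitase, was at 7.09, 7.04 and 7.49 (log2) in ID8-M and at 7.32, 7.19 and 7.46 in parental ID8. The highest of the 6 was ID8-M replicate 3, and the ranges overlapped. Between the lines Aco1 differed by −0.11 ± 0.14 on the log2 scale (SE; limma adjusted p = 0.576). Ireb2, which encodes iron regulatory protein 2, was at 7.94, 7.70 and 7.50 (log2) in ID8-M and at 7.70, 8.09 and 7.43 in parental ID8 by its brighter probe. It varied within each line by more than between lines, with a log2 difference of −0.03 ± 0.18 (SE; limma adjusted p = 0.922). Its other probe gave 0.14 ± 0.11 (adjusted p = 0.394).

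Across the roles, import therefore held 1 called rise, that of the ligand Trf, and the uncertain Steap3 call, while storage, export and sensing held no called probe. Over the 13 tested probes other than Trf, the 95% intervals reached from −0.78 to 0.62 on the log2 scale, or between 0.58-fold and 1.54-fold. None of these intervals comes near that of Trf, which starts at 3.29. A small change of these genes cannot be told from no change with 3 arrays per line.

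Beyond the 10 genes, 81 further genes of iron and haem handling were listed by role, of which 47 were tested. Of these, 6 were called higher and 3 lower in ID8-M, which is 19.1% against 30.8% of all tested genes, with a median log2 difference of 0 against −0.03 over all. Together with the 10 genes, 7 rose and 4 fell among 56 tested. The rises include Slc39a8, which passed the filter only through ID8-M, where it is higher. The falls include Steap3, which passed only through parental ID8, where it is higher. With chromosome medians removed 9 rose and 2 fell, a share of 19.6% against 24.2% of all tested genes. The share of these 56 genes that was called depended on the processing. It was 19.6% against 30.8% of all tested genes as reported, but 35.7% against 36.6% without background correction and 37.5% against 36.6% with a trended robust variance. Without parental ID8 replicate 2 it was 12.3% against 24.2%, and without parental ID8 replicate 3 it was 12.3% against 25.6%. By brightest probe, the calls fell in iron uptake routes, haem handling, mitochondrial iron and iron-sulfur clusters, and the sensing list.

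**Figure D4:**
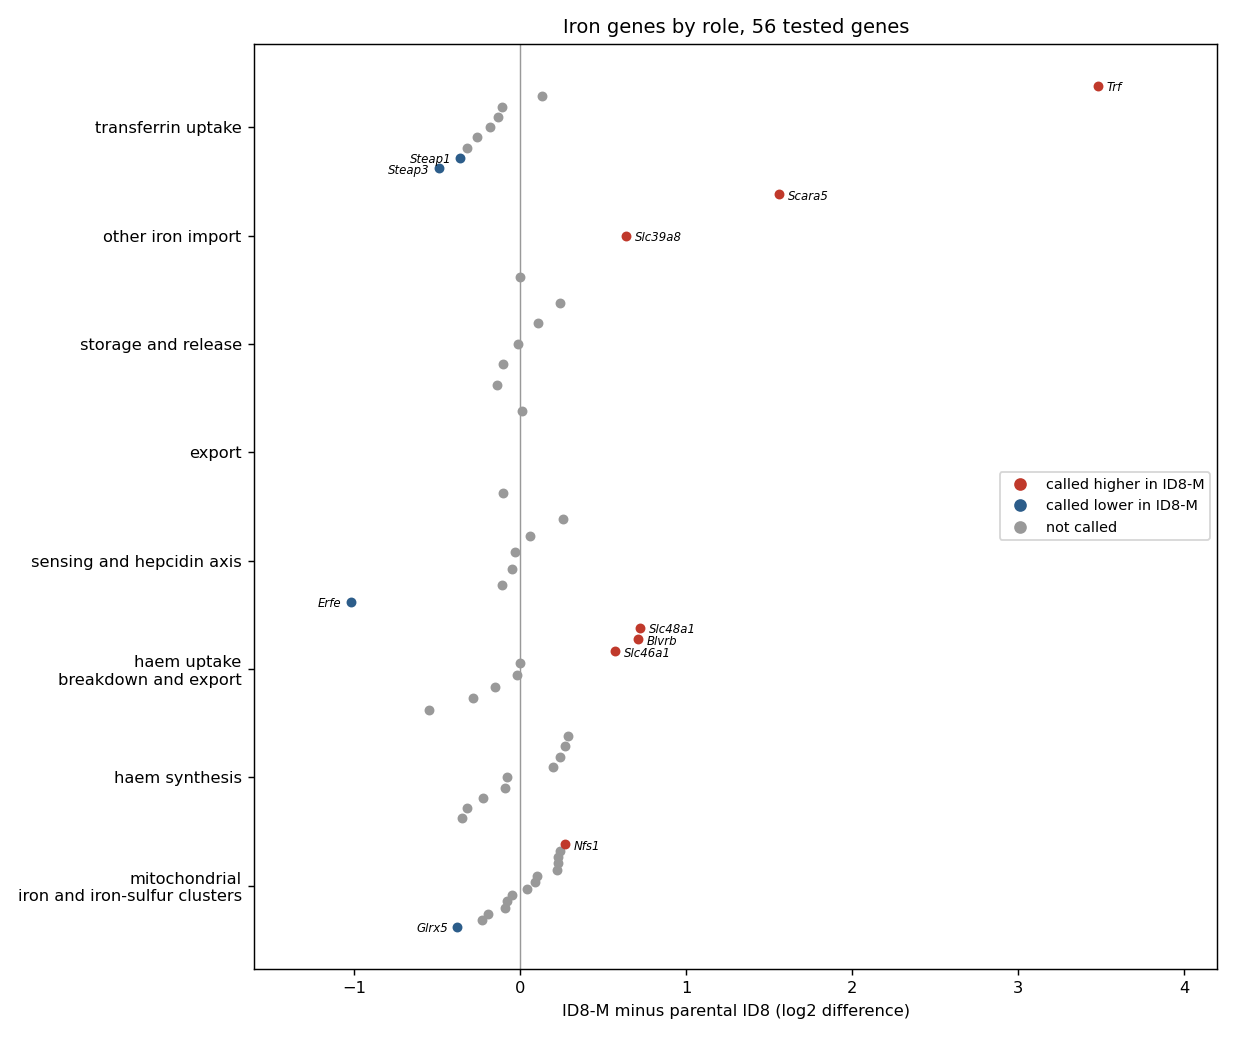
Log2 difference of ID8-M minus parental ID8 (horizontal axis) for the 56 tested iron genes, grouped by role, with each gene's brightest tested probe as 1 point. Called rises are red, called falls are blue and grey genes were not called. Trf lies at 3.48 and Scara5 at 1.56, and all other points lie between −1.02 and 0.72.

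Among genes of transferrin uptake, 1 of 9 tested rose and 2 fell, counting Trf and Steap3. That share of 33.3% is close to the 30.8% of all tested genes. Steap1, a metalloreductase relative of Steap3, was at 9.55, 9.74 and 9.82 (log2) in ID8-M and at 9.96, 10.19 and 10.05 in parental ID8. All ID8-M arrays were below all parental arrays, and the log2 difference was −0.36 ± 0.10 (SE; limma adjusted p = 0.032), which 5 of 15 other settings did not call. The related Steap2, named for its family, gave −0.18 ± 0.09 and was not called (limma adjusted p = 0.159). Tfr2, the second transferrin receptor, and Ltf, the related iron carrier lactoferrin, were not tested.

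Outside the transferrin route, 9 importers were listed, 3 were tested and 2 of these rose, against 15.4% of all tested genes called higher. Slc39a8, 1 of these 2, passed the filter only through ID8-M, where it is higher, so the count is not read as a result. Scara5, a scavenger receptor that takes up ferritin, was at 8.77, 8.96 and 8.81 (log2) in ID8-M and at 7.45, 7.24 and 7.17 in parental ID8. The lines were well apart, with a log2 difference of 1.56 ± 0.10 (SE), or 2.95-fold (limma adjusted p = 1.62e-05), and it was called under all 15 other settings, at 1.08 to 1.64. Slc39a8, which imports zinc, manganese and iron, was not detected on any parental array, and its signal in ID8-M lay close to background. It was called at a log2 difference of 0.64 against parental values below detection (limma adjusted p = 0.0108), or 0.20 without background correction. Set against the lowest detected parental signal, its level in ID8-M was higher by at least 1.18-fold, a bound that was not tested. The third, Slc11a1, a relative of Slc11a2 in phagosomes, showed a difference of 0 ± 0.16 (SE; limma adjusted p = 0.999).

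No gene of iron storage and release was called among 5 tested (0%, against 30.8% of all tested genes). Pcbp2, a chaperone that delivers iron to ferritin, came closest at 0.24 ± 0.08 (SE; limma adjusted p = 0.0608). It also lies on chromosome 15, and with the chromosome's median removed its difference was −0.13. It was called higher under 5 of 15 other settings, with adjusted p of 0.00286 to 0.0436. Of the exporters, Cp, which encodes the ferroxidase ceruloplasmin, showed 0.01 ± 0.19 for its brightest probe (limma adjusted p = 0.961). Cp has 4 probes, of which 3 were tested. Its other tested probes gave −0.16 (not called) and −0.31 (limma adjusted p = 0.0474, called lower), so its probes disagree.

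In the list of sensing and the hepcidin axis, 1 of 6 tested genes was called (16.7%, against 30.8% of all tested genes). Erfe encodes erythroferrone, a hormone that erythroid precursors release to lower hepcidin, and it was at 6.53, 7.02 and 6.59 (log2) in ID8-M and at 7.77, 7.63 and 7.78 in parental ID8. The lines did not overlap, and the log2 difference was −1.02 ± 0.13 (SE; limma adjusted p = 0.000936), or −0.56 without background correction. Fbxl5, the iron-sensing ubiquitin ligase subunit that turns over the iron regulatory proteins, showed a difference of −0.05 ± 0.14 (not called, limma adjusted p = 0.805). Hamp, which encodes hepcidin, was not tested.

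Haem handling held 3 called rises and no called fall among 8 tested genes of uptake, breakdown and export, a share of 37.5% against 30.8% of all tested genes. The median log2 difference of the 8 was −0.01, and the 5 genes not called ranged between −0.55 (Hmox1) and 0 (Lrp1). Slc48a1, which moves haem out of endosomes and lysosomes, was at 11.60, 11.60 and 11.46 (log2) in ID8-M and at 10.88, 10.78 and 10.85 in parental ID8. Its log2 difference was 0.72 ± 0.08 (SE; limma adjusted p = 0.00045), and 0.36 (still called) with the median of its chromosome, again 15, removed. Blvrb, a biliverdin reductase, rose by 0.71 ± 0.11 (limma adjusted p = 0.00196) and by 0.67 by its other probe. Slc46a1, a proton-coupled folate transporter also described as a haem carrier, rose by 0.57 ± 0.10 (limma adjusted p = 0.00356) and is named because it completes the count.

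By brightest probe, none of the 9 tested genes of haem synthesis was called (0%, against 30.8% of all tested genes). The nearest was Slc25a38, a mitochondrial glycine carrier, at 0.27 ± 0.09 (SE; limma adjusted p = 0.0536). It was called under 8 of 15 other settings, over which its difference was 0.21 to 0.33. A dimmer Fech probe was called lower (−0.54, limma adjusted p = 0.00928), while its brightest gave −0.32 (limma adjusted p = 0.0876). Of 14 tested genes of mitochondrial iron and iron-sulfur clusters, 1 rose and 1 fell by brightest probe (14.3%, against 30.8%). Dimmer probes of Hspa9 (−0.27, limma adjusted p = 0.0338) and Nubp2 (0.34, limma adjusted p = 0.0365) were also called, while their brightest were not. Nfs1, the cysteine desulfurase of cluster assembly, rose by 0.27 ± 0.08 (limma adjusted p = 0.0412) by its brightest probe, but 8 of 15 other settings did not call it and its 3 other probes were not called. Leaving out any 1 of the 6 arrays ended that call. Glrx5, a mitochondrial glutaredoxin that passes on clusters, fell by 0.38 ± 0.10 (limma adjusted p = 0.025), a call that 7 of 15 other settings did not make, among them leaving out any array but ID8-M replicate 2.

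**Figure D5:**
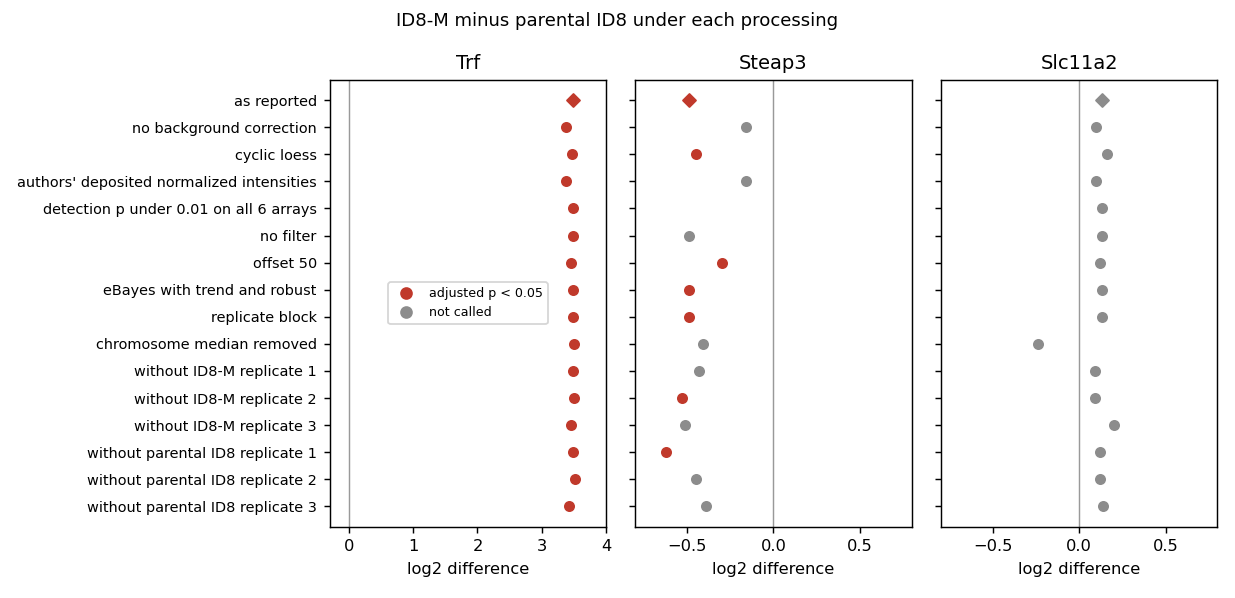
Log2 difference of ID8-M minus parental ID8 (horizontal axes, which differ between panels) for the brightest probe of Trf, Steap3 and Slc11a2 under the reported processing (diamond) and 15 alternatives (circles), in red where called. Trf stays between 3.37 and 3.52, Steap3 loses its call under 8 settings and has no point where its probe was filtered out, and Slc11a2 turns to −0.24 only with chromosome medians removed.

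The 5 genes whose levels followed Trf most closely over the 6 arrays were Gstm2 (Pearson r = 0.99985), Cmbl (0.99974), Cxcl1 (0.99964), Fcgr4 (0.99951) and Nnmt (0.9995). With 2 lines of 3 arrays such values mainly reflect the gap between lines, and 223 of 8709 compared genes (2.56%) had an r over 0.99. Gstm2, a glutathione S-transferase, was 5.21-fold higher in ID8-M, and Nnmt, nicotinamide N-methyltransferase, 2.27-fold higher. Cmbl, the chemokine gene Cxcl1 and the Fc receptor gene Fcgr4 were not detected on any parental array.

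Markers of other cells that ascites could hold were set beside these results. Of 10 macrophage markers with a probe, none was detected on all arrays of either line, and 9, among them Ptprc, Csf1r and Adgre1, were not detected on any array. Their summed level, in normalised units after the offset is taken off, was 124 to 125 in ID8-M and 124 to 139 in parental ID8. Of 6 erythroid markers, none was detected on all arrays of a line (71.4 to 81.8 in ID8-M, 70.7 to 82.6 in parental ID8), and Hba-a1 and Alas2 were not detected on any array. Of 4 lymphocyte markers, Cd3e was detected on all arrays of both lines (90.9 to 126 in ID8-M, 115 to 169 in parental ID8). Cd3e averaged 6.40 (log2) in ID8-M and 6.69 in parental ID8 and was not called (limma adjusted p = 0.355).

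Epithelial markers were detected for 6 of 8 genes in each line, with a summed level of 29600 to 31300 in ID8-M and 18200 to 20000 in parental ID8, while Epcam and Cldn4 were not detected on any array. Mesothelial markers were detected for 3 of 3 in ID8-M and 2 of 3 in parental ID8 (7560 to 8860 against 3620 to 3950). Of 7 fibroblast markers, Col1a1 and Dcn were detected in both lines (6980 to 7200 in ID8-M, 4500 to 4830 in parental ID8), and Pdgfra, Pdgfrb and Col3a1 were not detected on any array. Of 4 endothelial markers, Pecam1 was detected in ID8-M and none in parental ID8 on all arrays (98.9 to 114 against 68.4 to 74.8). A few bright genes carry the larger sums, and not all markers went the same way. Of the epithelial genes, Krt7, Cldn3, Krt18, Krt8 and Krt19 were called higher in ID8-M and Cdh1 lower (log2 difference −0.61, limma adjusted p = 0.00468). Krt7, Krt18 and Krt8 lie on chromosome 15 (median log2 difference 0.36) and Cdh1 on chromosome 8 (median −0.31). The calls of these markers are given without removing those shifts. Upk3b (1.41) was called higher among mesothelial genes, and Msln was not called (0.23, limma adjusted p = 0.126). Lrrn4 was not detected on any parental array and passed the filter only through ID8-M, where it is higher. Its call is therefore not read as a result, and its level in ID8-M was higher by at least 1.36-fold, a bound that was not tested. The fibroblast sum is mostly Dcn, called higher at 0.61, whereas Col1a1 was not called (−0.10, limma adjusted p = 0.776). The part of these markers in the Trf difference was not tested.

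Between 16765 and 17186 probes were detected per ID8-M array and between 16386 and 17150 per parental array. Over the tested probes, Pearson correlations were 0.9933 to 0.9946 between arrays of the same line and 0.9673 to 0.9704 across lines, and no array stood apart.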

How the data were processed

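The deposited scanner table gives, per the file headers, the mean bead intensity per probe and array (linear, neither background subtracted nor normalized), the count of beads, their standard error and a detection p-value. The authors' second deposited table holds normalized intensities that matched plain quantile normalization within 0.109% to 1.65% per array. It served as an alternative, nearly the same processing as the setting without background correction, and each is counted as a setting. Intensities were background corrected from the detection p-values, then quantile normalized, offset by 16 and log2 transformed (neqc, limma 3.58.1, R 4.3.3). Genes came from the platform annotation, with 34885 probes of 1 symbol, 18 of several and 10378 of none. Probes were fitted with limma (lmFit, eBayes, two-sided, 4 residual degrees of freedom). A gene outside the 10 is given by its brightest tested probe.

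The 10 genes and all lists were chosen with earlier results of these data known. Named beside them were, per list, up to 2 called rises and 2 called falls of largest size, or else the gene with the smallest adjusted p, and the 5 genes most correlated with Trf. Steap2, Slc11a1, Fbxl5 and Slc46a1 fall outside that rule and were added after their values were seen. A bound ("at least") sets ID8-M against the parental mean of the lowest detected signal or the probe's own. Genes without a probe were not analysed here. The fit was tested on simulated data. The number of arrays limits the precision.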

Additional observations from a re-analysis of the deposited data

How the results depend on the processing

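The Trf rise and the calls of Scara5, Erfe, Slc48a1 and Blvrb were made under every alternative. Slc39a8 was called under the 14 in which its probe was tested. Its probe passed the filter only through the ID8-M arrays and was dropped where detection on all 6 arrays was required. The 2 called iron handling probes became 1 (Trf) without background correction, with the authors' normalized intensities, with detection on all 6 arrays at p under 0.01 and with no filter, and were 1 to 2 when 1 array was left out. The 11 called genes among 56 became 20 without background correction (14 higher, 6 lower), or 35.7% against 36.6% of all tested genes. With the authors' normalized intensities, nearly the same processing, they became 20 (14 higher, 6 lower), or 35.7% against 36.7%. With a trended robust variance they became 21 (14 higher, 7 lower), or 37.5% against 36.6%. With no filter they became 7 among 86 (6 higher, 1 lower), or 8.14% against 12.1%. With the mean of all probes of a gene they became 18 (11 higher, 7 lower), and the share over all genes is not given for that setting. Leaving out 1 array gave 7 to 10, with 7 without parental ID8 replicate 2 and 7 without parental ID8 replicate 3. The shares were then 12.3% to 17.9%, against 22.8% to 25.6% of all tested genes. The second Slc11a2 probe turned to −0.30 and was called with chromosome medians removed. With the replicate number as a block, 2 probes and 10 genes were called, and the genes made 17.9% against 26.1% of all tested genes. The Nfs1 call was the one lost among named genes under that block (limma adjusted p = 0.0729). Same-numbered samples did not deviate together (correlations of 0.0374, −0.0933 and 0.0065), and ID8-M replicate 2 correlated best with parental ID8 replicate 3 (0.101). Such values cannot tell whether same-numbered samples were handled together. The causes of the changes between settings were not tested. Signal near background limits Steap3, Slc39a8 and Heph.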

Other observations

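Hmox1, the haem oxygenase that frees iron from haem, was chosen here after its values were seen. It was at 6.05, 5.87 and 5.95 (log2) in ID8-M and at 5.96, 6.49 and 7.05 in parental ID8. Its parental arrays spread over more than 1 log2 unit while the ID8-M arrays stayed close together. The log2 difference was −0.55 ± 0.23 (SE) and was not called (limma adjusted p = 0.118). Hmox1 lies on chromosome 8, where the median log2 difference was −0.31.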
